A study of Mus musculus with 4 samples.

Results

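The 10 genes *Lgr5*, *Ascl2*, *Smoc2*, *Olfm4*, *Axin2*, *Rnf43*, *Znrf3*, *Ephb2*, *Sox9* and *Myc* mark the stem cells at the base of the intestinal crypt or are transcriptional targets of Wnt signalling there. The 10 were taken by symbol from a table of 16015 mouse genes, and all 10 were listed. The rule is a list of names and uses no measured value, though the list was drawn up with earlier results of these data known. All 10 also reached a mean of 10 normalized counts, the level asked for before a gene was tested. *Olfm4* reached that level only through the control libraries, so it had to lie lower in the others once it passed. Bulk RNA sequencing covered 4 libraries of colonic epithelial cells, from 2 mice labelled WT (called control here) and 2 mice labelled *Bmal1* cKO. All were on a C57BL/6 background, 2 to 4 months old, and drank 3% dextran sulfate sodium (DSS, a polysaccharide that injures the colonic epithelium) for 5 days and then water for 2 days before cells were taken on day 7. Per the study's methods the control animals were *Bmal1* fl/fl littermates, and the *Bmal1* cKO animals were *Villin-CreERT2; Bmal1* fl/fl. Tamoxifen, injected for 5 days at 20 mg/ml, switches on this Cre, which the *Villin* promoter drives in intestinal epithelial cells. Cells of other lineages in the same sample keep the gene intact. Whether the control animals also received tamoxifen is not given in the sources used here. The question addressed is how these genes stood in the colonic epithelium of the 2 genotypes during DSS colitis.

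Wnt proteins bind Frizzled and LRP receptors and thereby keep β-catenin from the destruction complex, so that it reaches TCF/LEF factors in the nucleus and switches on target genes. In the colon this signal is strongest at the crypt base, where *Lgr5*-positive stem cells divide and renew the epithelium. LGR receptors bind R-spondins and so hold back the ubiquitin ligases RNF43 and ZNRF3, which otherwise remove Frizzled from the cell surface. After injury the crypt base is rebuilt from surviving cells, and its marker genes are commonly used to follow that process.

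The sequences shown first are those by which *Lgr5*, the gene with the largest rise among the 10, can be measured by PCR, and the promoters of *Axin2* and *Ascl2*, a general Wnt target and a stem cell factor. The pair of primers that the study listed for *Lgr5* reads, 5′ to 3′:
*Lgr5* forward primer: taaagacgacggcaacagtg
*Lgr5* reverse primer: gccttcaggtcttcctcaaa
Both lie in the coding part of transcript Lgr5-201, the forward primer in exon 16 (GRCm38, chr10:115456693-115456712) and the reverse primer in exon 17 (chr10:115454478-115454497), and they enclose 117 bp of the transcript. The 250 bases before the transcription start, from RefSeq on GRCm38.p6 and read 5′ to 3′ on the strand of the gene, are printed with each CpG dinucleotide in capitals.
*Axin2* promoter (chr11:108920099-108920348, + strand): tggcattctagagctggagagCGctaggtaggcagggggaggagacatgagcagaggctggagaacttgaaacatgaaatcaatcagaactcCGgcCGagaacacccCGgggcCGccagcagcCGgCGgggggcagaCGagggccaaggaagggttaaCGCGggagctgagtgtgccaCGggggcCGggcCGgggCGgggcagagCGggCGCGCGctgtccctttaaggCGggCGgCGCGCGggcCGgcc
*Ascl2* promoter (chr7:142969265-142969514, − strand): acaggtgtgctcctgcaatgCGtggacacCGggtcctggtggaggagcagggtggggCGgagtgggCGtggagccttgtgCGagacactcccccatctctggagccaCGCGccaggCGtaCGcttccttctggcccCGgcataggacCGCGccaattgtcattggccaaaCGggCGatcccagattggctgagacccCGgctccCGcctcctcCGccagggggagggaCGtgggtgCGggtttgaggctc
Both windows were rich in CpG, with 24 dinucleotides in *Axin2* and 19 in *Ascl2* against a median of 6 over 32851 mouse promoter windows of the same length. Their GC content was 69.2% and 67.6%, against a median of 52.4%. Promoter windows were at hand for 5 of the 10 genes, namely these and *Ephb2*, *Rnf43* and *Olfm4*. None of their 6 windows (*Rnf43* has 2) held the core CTTTG of the TCF/LEF motif, searched on both strands, which 48.6% of all windows held. None held the E-box CACGTG, the motif by which BMAL1 and its partner CLOCK are known, which 6.02% of all windows held. The longer forms that add AA, AT, TA or TT to that core, of which at least 1 stood in 14.8% of all windows, and the E-box CAGCTG (13%) were not found either. These counts describe the letters of short windows only.

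The reads on listed genes numbered 10312791 to 14156639 per library. *Arntl*, the symbol under which *Bmal1* is listed, had 358 and 342 normalized counts in the control libraries and 341 and 289 in the cKO libraries (those labelled *Bmal1* cKO). Its change between the groups was -0.16 on the log2 scale (standard error, abbreviated SE, of 0.14, limma adjusted p = 0.389). The table gives 1 value per gene, so reads from the floxed part cannot be read apart from the rest. For these libraries the genotype therefore rests on the labels throughout. The study reported loss of BMAL1 from the intestinal epithelium of its knockout mice by immunoblot and immunohistochemistry, assays separate from these libraries. Markers of epithelium were present in all 4 libraries, with summed normalized counts of 153996 and 177564 in the controls and 137828 and 144541 in the cKO libraries over 12 genes. Markers of stroma (14 genes, summed 18353 and 5048 in the controls, 591 and 711 in the cKO libraries) and of leukocytes (14 genes, summed 10602 and 19021 against 1254 and 1331) were far lower in the cKO libraries. Of the stroma markers 13 and of the leukocyte markers 12 were lower with an adjusted p under 0.05, and 8 of the 28 reached the level for testing through the controls only. The smooth muscle marker *Des* was listed at 0 and 1.35 in the cKO libraries. The control libraries also differed from each other. Of the stroma markers 13 of 14 and of the leukocyte markers 11 of 14 were higher in the first, and the larger leukocyte sum of the second came from the neutrophil genes *S100a8* and *S100a9*, without which the sums were 8082 and 3768. In addition the log2 fold change of a gene followed the GC content of its exons, with a Spearman rho of -0.62 across 13975 genes of the same 4 libraries. With the trend in GC content and exon length removed, 0 of the 12 epithelium markers were lower and 2 higher, around a median of 0.36. Of all genes 15.7% were lower and 15.9% higher then. The part of these differences in the results was not tested beyond the correction and scalings given with them. In bulk libraries fewer cells of a type and less RNA per cell cannot be told apart.

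On the deposited scaling the 10 genes did not move as a block. *Lgr5* and *Smoc2* were higher in the cKO libraries, whereas *Ascl2*, *Olfm4*, *Rnf43*, *Ephb2* and *Myc* were lower, and *Axin2*, *Znrf3* and *Sox9* did not pass the test. Thus 5 of 10 genes were lower, where 27.7% of all 13983 genes tested were lower, and 2 of 10 were higher, where 29% of all genes were. *Olfm4*, one of the 5, reached the level for testing through the controls only and so could only lie lower. The calls are from limma on log2(normalized count + 1) with Benjamini-Hochberg adjustment over all genes tested, two-sided, at an adjusted p under 0.05. The median log2 fold change of the 10 genes was -0.94, against -0.04 for all genes tested. Values of 6 genes lay below both control libraries in both cKO libraries (41.7% of all genes tested did) and values of 3 lay above (40.3% did), and only *Sox9* overlapped. With shares this large over all genes, the counts by themselves say little about the 10 genes. With the trend in GC content and exon length removed, *Ascl2* (log2 fold change -0.28), *Rnf43* (-0.40) and *Ephb2* (0.05) did not pass.

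**Figure D1:**
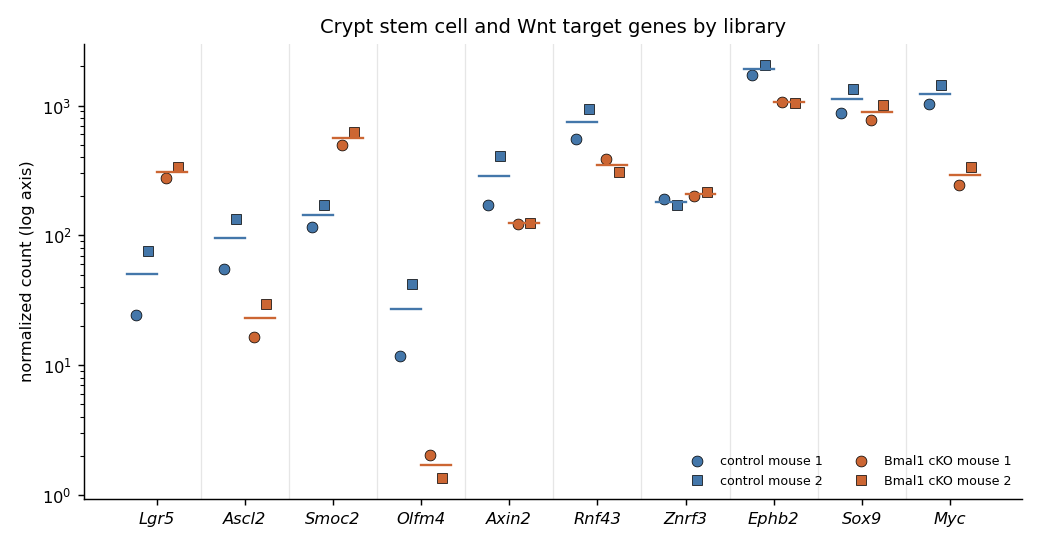
Normalized counts on a log axis for the 10 genes in each of the 4 libraries, with control libraries in blue, libraries labelled *Bmal1* cKO in orange, circles for mouse 1, squares for mouse 2 and a line at each group's mean. *Lgr5* and *Smoc2* lie higher in both orange libraries, *Ascl2*, *Olfm4*, *Axin2*, *Rnf43*, *Ephb2* and *Myc* lie lower, *Znrf3* is slightly higher and *Sox9* overlaps.

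*Lgr5*, the R-spondin receptor that defines crypt base columnar stem cells, spans chr10:115450311-115587780 on the − strand of GRCm38. Its normalized count was 24.5 and 76.2 in the control libraries and 275 and 339 in the cKO libraries. Every cKO value was therefore more than 3 times the higher control value, although the control mice also differed severalfold from each other. Behind these values stood 29 and 90 reads in the controls and 267 and 251 reads in the cKO libraries. The difference between the groups was a log2 fold change of 2.79 (SE 0.53, 95% confidence interval 1.45 to 4.13, limma adjusted p = 0.00814), which is 6.90-fold on the log2(value + 1) scale. Among the 1397 genes of its GC class, one of 10 classes of nearly equal size, the median was 0.39 and the 95th percentile 1.41, so that *Lgr5* lay above both. Once the trend with GC content and exon length was taken out of each library (the GC-corrected scale) the log2 fold change was 2.40 (limma adjusted p = 0.0342). The size rests on which mice are compared. It was 1.99 without control mouse 1 and 3.59 without control mouse 2, both past the threshold. It was 2.94 without cKO mouse 1 and 2.63 without cKO mouse 2, where the limma adjusted p of 0.0709 and 0.0887 missed it.

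*Smoc2* encodes a secreted matrix-associated protein that is enriched in *Lgr5*-positive cells (chr17:14279506-14404790, + strand). It had 116 and 173 normalized counts in the control libraries and 493 and 626 in the cKO libraries. The groups were well apart, and the mice of each group lay closer together than for *Lgr5*. Its log2 fold change was 1.97 (SE 0.24, limma adjusted p = 0.00191) and 1.86 on the GC-corrected scale (adjusted p = 0.00997). Its GC class had a median of -0.05 and a 95th percentile of 1.03. *Smoc2* passed the test under all 17 alternative ways of processing, among them the omission of each mouse, with log2 fold changes between 1.63 and 2.54. Fibroblasts can express *Smoc2* too. The summed stroma markers were lower in both cKO libraries, and their part in its values was not tested.

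*Ascl2*, the basic helix-loop-helix factor that maintains the *Lgr5*-positive state, went the other way (chr7:142966829-142969264, − strand). It had 54.9 and 135 normalized counts in the control libraries against 16.5 and 29.7 in the cKO libraries. No values overlapped, yet the control mice differed from each other by more than the lower control differed from the higher cKO value. Its log2 fold change was -1.91 (SE 0.56, limma adjusted p = 0.0331). *Ascl2* has the highest GC content of the 10 genes, 62.0%, and the median of its GC class was -1.36. On the GC-corrected scale it was -0.28 (limma adjusted p = 0.714), so that its fall and that of genes of like GC content cannot be told apart. The call also ended in limma fits without control mouse 2 (-1.27, adjusted p = 0.150), without cKO mouse 1 (-1.50, adjusted p = 0.179) and without cKO mouse 2 (-2.32, adjusted p = 0.0886), while without control mouse 1 it was -2.55.

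*Olfm4* encodes a secreted glycoprotein that marks stem cells of the small intestine and is known for low levels in the mouse colon (chr14:79984081-80023139, + strand). It had 11.8 and 42.4 normalized counts in the control libraries and 2.06 and 1.35 in the cKO libraries. These were 14 and 50 reads in the controls and 2 and 1 reads in the cKO libraries. *Olfm4* reached the level for testing through the controls only, so it had to lie lower once tested. Over each group the controls held 15.4 times as many reads per unit of library size, with an exact 95% interval of 5.05 to 76.9 that covers counting error only. This gave a log2 fold change of -3.14 (SE 0.92, limma adjusted p = 0.0333), and the size of so low a gene depends on the pseudocount, falling to -2.08 with a pseudocount of 5. The GC-corrected fall was larger, -3.86 (adjusted p = 0.0333), since genes of its GC class had a positive median of 0.81. The call ended in limma fits without cKO mouse 1 (-3.33, adjusted p = 0.106) and without cKO mouse 2 (-2.95, adjusted p = 0.132), while without control mouse 1 it was -4.02 and without control mouse 2 -2.26. *Olfm4* shares 153 exonic bases with the lincRNA gene *Gm6999* on the same strand, so part of its reads could be split between them. Neutrophils are also known to express *Olfm4*, and the leukocyte markers *S100a8* and *S100a9* were far lower in the cKO libraries. *S100a8* had 1424 and 8066 normalized counts in the controls against 362 and 174. *S100a9* had 1096 and 7187 against 121 and 60.8. The part of these cells in the *Olfm4* values was not tested.

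Among the 3 genes that feed back on the pathway, *Rnf43* was lower, and *Axin2* and *Znrf3* did not pass the test. *Axin2* encodes a scaffold of the β-catenin destruction complex and is a widely used readout of Wnt activity (chr11:108920349-108950783, + strand). Its normalized counts were 171 and 407 in the control libraries and 123 and 126 in the cKO libraries. Both cKO values lay below both controls, but the second control mouse stood far above the first, and the log2 fold change of -1.08 (SE 0.41, limma adjusted p = 0.0720) missed the threshold. It passed without control mouse 1 (-1.70, limma adjusted p = 0.0178), with scaling to the library total (-1.30, adjusted p = 0.0378) and in DESeq2 on the recovered reads (-1.21, adjusted p = 0.0263). Without control mouse 2 it was -0.45 and on the GC-corrected scale -0.35 (adjusted p = 0.563). *Axin2* overlaps the antisense gene *Gm11670* by 209 exonic bases, and whether the counting used strand is not given in the sources used here.

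*Rnf43* encodes one of the ubiquitin ligases that remove Frizzled receptors (chr11:87662722-87735539, + strand). It had 551 and 935 normalized counts in the controls and 387 and 310 in the cKO libraries, without overlap. The log2 fold change was -1.05 (SE 0.27, limma adjusted p = 0.0224), and -0.40 on the GC-corrected scale (adjusted p = 0.310). Its GC content of 55.3% put it in a class with a median of -0.62. The call ended without control mouse 2 (-0.67, limma adjusted p = 0.0780), without cKO mouse 1 (-1.21, adjusted p = 0.0900) and without cKO mouse 2 (-0.89, adjusted p = 0.155).

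Its paralog *Znrf3* (chr11:5276324-5444847, − strand) stood at 192 and 171 normalized counts in the controls and 203 and 216 in the cKO libraries. The groups did not overlap, but the log2 fold change of 0.21 (95% confidence interval -0.21 to 0.62, limma adjusted p = 0.322) did not pass the test. With scaling to the library total, which lowered the median of all genes by 0.22, it was -0.02. The ratio of *Rnf43* to *Znrf3* within a library, in which the size factor plays no part, was 2.87 and 5.47 in the controls and 1.91 and 1.43 in the cKO libraries. By this ratio the 2 ligases lay closer in level in both cKO libraries. The ratio carries the difference in GC content between the pair. On the GC-corrected scale *Rnf43* was -0.40 and *Znrf3* 0.38, and neither passed.

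Of the transcription factors, *Myc* fell steeply and *Sox9* did not separate the groups. *Myc*, a target of β-catenin that drives growth and ribosome synthesis (chr15:61985391-61990374, + strand), had 1033 and 1431 normalized counts in the control libraries and 244 and 339 in the cKO libraries. The lower control was thus about 3 times the higher cKO value. Its log2 fold change of -2.08 (SE 0.23, 95% confidence interval -2.64 to -1.51, limma adjusted p = 0.00132) passed under all 17 alternatives. These ranged from -2.31 to -1.41, the smallest fall being the one on the GC-corrected scale (adjusted p = 0.0148). *Myc* is also expressed by activated leukocytes and stromal cells, whose markers were lower in the same libraries, and their part in its fall was not tested.

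*Sox9*, which is needed for Paneth cells in the small intestine and marks crypt progenitors in the colon (chr11:112782224-112787760, + strand), had 878 and 1351 normalized counts in the controls and 771 and 1003 in the cKO libraries. The second cKO mouse lay between the control mice. The log2 fold change was -0.31 (95% confidence interval -0.91 to 0.29, limma adjusted p = 0.308), and it was 0.00 without control mouse 2. With scaling on epithelium markers after the GC correction it was lower (-0.69, limma adjusted p = 0.0246). The interval leaves room for a fall of nearly 2-fold as well as for a small rise.

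*Ephb2*, the receptor that keeps crypt base cells from mixing with ephrin-B cells higher up (chr4:136647539-136835988, − strand), had 1730 and 2064 normalized counts in the controls and 1072 and 1042 in the cKO libraries. The mice of each group lay close together. The log2 fold change of -0.84 (SE 0.12, limma adjusted p = 0.00267) held when any one mouse was left out. It nevertheless lay close to the median of its GC class, -0.83, and on the GC-corrected scale it was 0.05 (95% confidence interval -0.31 to 0.42, adjusted p = 0.792). The call also ended with scaling on epithelium markers (-0.26, limma adjusted p = 0.182).

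After the correction 2 of the 10 genes were lower, *Olfm4* and *Myc*, where 15.7% of all 13975 genes corrected were lower, and 2 were higher, *Lgr5* and *Smoc2*, where 15.9% were. *Olfm4* reached the level for testing through the controls only, so it could only lie lower. The other 6 did not pass. *Axin2* (GC content 55.9%, log2 fold change -1.08), *Ephb2* (55.9%, -0.84) and *Rnf43* (55.3%, -1.05) lay near the medians of their classes, which were -0.83 for the former pair and -0.62 for *Rnf43*. *Myc*, with a GC content of 55.0%, lay below its class median of -0.62 but above the 5th percentile of the class, -3.42. *Lgr5* (47.5%), *Smoc2* (50.4%) and *Olfm4* (44.5%) lay outside the range from the 5th to the 95th percentile of their classes. As a group the 10 genes had a median GC content of 53.5% against 49.9% for all genes tested, and 7 of them lay above that median. Outside the correction, scaling the libraries on the 12 epithelium markers raised the median of all genes by 0.58 and left 2 of the 10 genes lower (*Ascl2* and *Myc*), where 14.2% of all genes tested were lower, and 3 higher (*Lgr5*, *Smoc2* and *Znrf3*), where 44.5% were higher.

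**Figure D2:**
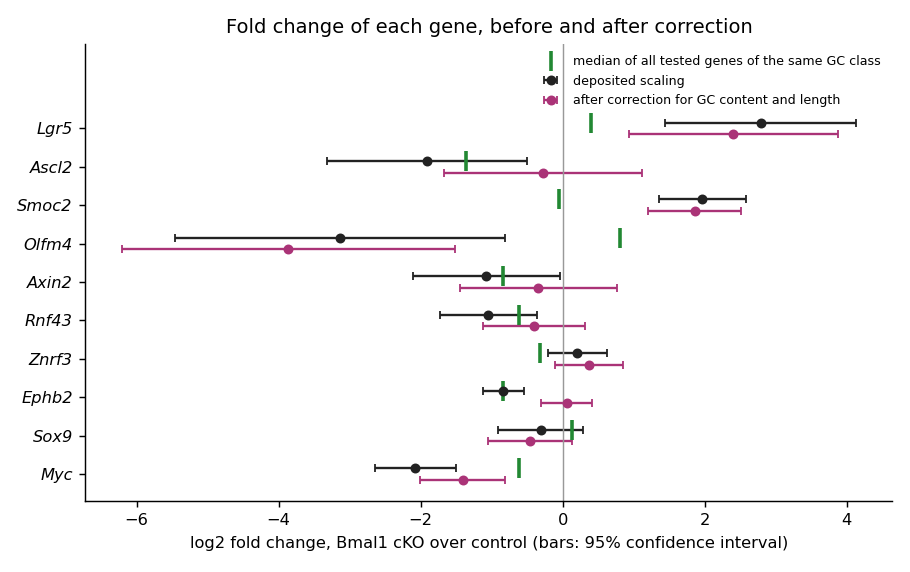
Log2 fold change of each gene (cKO over control) with its 95% confidence interval from limma, on the deposited scaling in black and on the GC-corrected scale in purple, and the median of all genes of the same GC class as a green mark. The intervals of *Lgr5*, *Smoc2*, *Olfm4* and *Myc* stay clear of 0 on both scales, while *Ascl2*, *Rnf43* and *Ephb2* reach 0 after correction and *Ephb2* moves from -0.84 to 0.05.

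**Figure D3:**
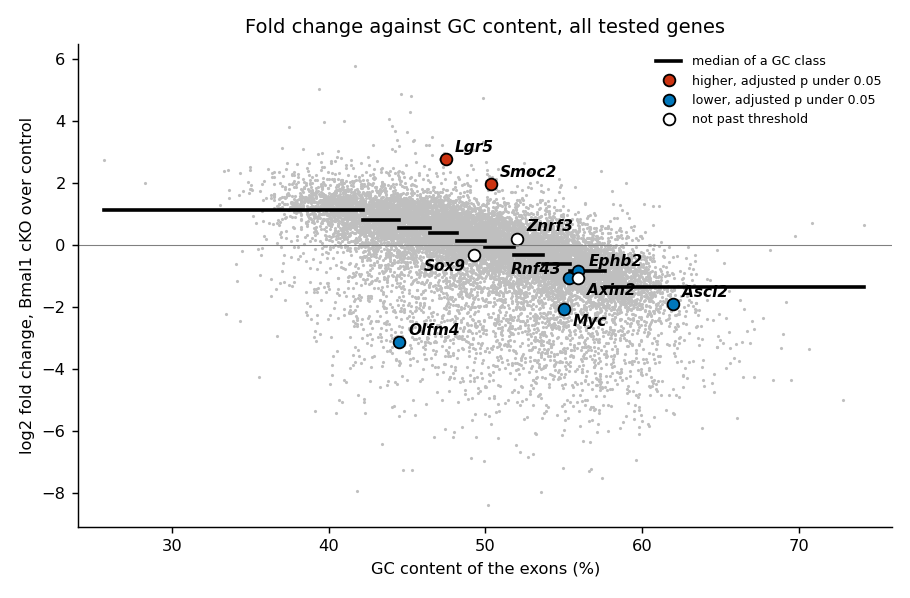
Log2 fold change (cKO over control) against the GC content of the exons for 13975 genes in grey, with the median of each of 10 GC classes as a black bar and the 10 genes in colour by call. The class medians fall from 1.14 in the lowest class to -1.36 in the highest, *Lgr5* and *Smoc2* lie above this course, *Myc* and *Olfm4* below it, and *Ephb2*, *Axin2*, *Rnf43* and *Ascl2* near it.

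Ratios between the genes within a library, which do not depend on the size factor, showed how far their balance shifted. There was 1 *Lgr5* read for several *Axin2* reads in the controls (ratios of 0.144 and 0.187) and more than 2 *Lgr5* reads for each *Axin2* read in the cKO libraries (2.23 and 2.70). The ratio of *Lgr5* to *Ascl2*, a pair that marks the same cells in the healthy crypt, was 0.446 and 0.566 in the controls and 16.7 and 11.4 in the cKO libraries. The ratio of *Lgr5* to *Smoc2* differed less, with 0.212 and 0.441 in the controls and 0.557 and 0.542 in the cKO libraries. *Axin2* to *Ascl2* was nearly equal in the control mice, 3.11 and 3.03, although both genes were more than 2 times as high in the second of them, and it was 7.50 and 4.23 in the cKO libraries. Set against the epithelial adhesion gene *Epcam*, *Lgr5* rose from 0.00140 and 0.00350 to 0.0148 and 0.0167. All of these ratios carry the differences in GC content between the paired genes.

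Levels of different genes were compared per kilobase of exon, with the exons of all annotated transcripts of a gene merged. Which transcripts were expressed was not tested and the GC trend was not removed, so the order is approximate. In the controls *Myc* had the highest mean, 454 normalized counts per kb, followed by *Sox9* with 270, *Ephb2* with 150 and *Rnf43* with 113. The ranges of *Ephb2* (137 to 164) and *Rnf43* (84.0 to 143) overlapped. *Ascl2* (58.4) and *Axin2* (52.5) came next and overlapped widely, as did *Znrf3* (23.0) and *Smoc2* (20.8). *Olfm4* (9.15) and *Lgr5* (4.91) were lowest, and their ranges overlapped too. In the cKO libraries the order differed. *Sox9* led with a mean of 215 per kb and *Myc* followed with 107. *Smoc2*, at 80.5, had come level with *Ephb2* at 83.8, and *Lgr5*, at 29.9, stood beside *Znrf3* at 26.5 and above *Axin2* (22.6) and *Ascl2* (14.2). *Olfm4* was last with 0.575.

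The genes whose 4 log2 values, centred on their mean, lay nearest those of *Lgr5* were found among 9982 genes that reached a mean of 100 normalized counts, by the root mean square difference over the 4 libraries. *Cyp2c68*, a cytochrome P450, was nearest at 0.139, with 38.9 and 127 normalized counts in the controls and 359 and 560 in the cKO libraries. *Rnf152* (0.284), *Slc37a2* (0.286), *Slc34a2* (0.318) and *Slc26a3* (0.375) followed. *Slc26a3*, the chloride and bicarbonate exchanger of differentiated colonocytes, had 2200 and 4707 normalized counts in the controls and 13157 and 15104 in the cKO libraries. Thus a marker of mature surface cells was among the nearest to *Lgr5*, and neither *Smoc2* nor any other of the 10 genes was among these 5. With 4 libraries the measure describes a likeness in few values only.

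Further genes were read from 10 lists by role, 8 of the Wnt pathway, stem cells and Eph receptors and 2 of proliferation and of mature colonocytes. Of their 156 genes 115 were tested, of which 34 (29.6%) were lower and 27 (23.5%) higher by the same test, where 27.7% and 29% of all genes tested were. On the GC-corrected scale 21 (18.3%) were lower and 23 (20%) higher. Without the lists of proliferation and colonocytes 24 of 81 tested genes were lower and 20 higher, and 12 and 21 on the GC-corrected scale (14.8% and 25.9%, against 15.7% and 15.9% of all genes). Of the 115, 12 reached the level for testing through the controls only and so had a lower mean in the cKO libraries once tested, and 4 of these 12 are among the 34. Among Wnt ligands and secretion factors, 5 of 21 genes reached the level for testing, of which 1 was lower and 1 higher, and 2 of the 5 reached it through the controls only. *Wls*, the carrier needed for Wnt secretion, was the higher one, with 1839 and 1778 normalized counts in the controls and 3674 and 3812 in the cKO libraries (log2 fold change 1.05, limma adjusted p = 0.000672), and it was -0.07 on the GC-corrected scale. *Wnt5a*, a ligand made largely by stromal cells, was the lower one, with 95.5 and 36.4 against 13.4 and 10.8, a call that ended in 4 of 16 alternatives, among them the omission of control mouse 1, cKO mouse 1 or cKO mouse 2.

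Among R-spondins and receptors 4 of 14 tested genes were lower and 4 higher, with a median of -0.04, and after the correction 2 were lower and 5 higher. *Lgr4*, the homolog of *Lgr5* that is expressed through the whole crypt, rose from 2058 and 2257 normalized counts to 7661 and 7359 (log2 fold change 1.80, standard error 0.10, limma adjusted p = 0.000533). It was 1.20 after the correction (adjusted p = 0.00493) and passed under all 17 alternatives. *Lgr4* thus moved in the direction of *Lgr5*, from a level many times higher. *Ror2*, a receptor for *Wnt5a*, had 81.9 and 44.9 normalized counts in the controls and 13.4 and 14.9 in the cKO libraries (log2 fold change -2.03, adjusted p = 0.0153), and -1.06 after the correction (adjusted p = 0.119). Its call also ended without control mouse 1, cKO mouse 1 or cKO mouse 2.

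Of 7 tested secreted or membrane Wnt inhibitors 3 were lower, but 4 of the 7 reached the level for testing through the controls only and so had to lie lower. After the correction 1 was lower. *Sfrp1* had 427 and 33.0 normalized counts in the controls and 0 and 10.8 in the cKO libraries, the largest change among them (log2 fold change -5.13, limma adjusted p = 0.0413). It was one of these 4, and its call ended in 8 of 17 alternatives, among them the GC correction (-5.09, limma adjusted p = 0.0746) and the omission of any one mouse, with log2 fold changes from -6.96 (without control mouse 2) to -3.31 (without control mouse 1). Its high value in the first control mouse went with the high stroma markers of that library, whose part in it was not tested. *Kremen1*, the most abundant, had 368 and 346 against 319 and 283 and did not pass. In the destruction complex and the Dishevelled family 4 of 12 tested genes were lower and 6 higher, with a median of 0.23, and after the correction 1 was lower and 4 were higher. *Ctnnb1*, which encodes β-catenin itself, had 9006 and 9942 normalized counts in the controls and 15471 and 15671 in the cKO libraries (log2 fold change 0.72, limma adjusted p = 0.00447), and 0.71 after the correction (adjusted p = 0.0175). Without cKO mouse 1 or cKO mouse 2 its limma adjusted p was 0.0569 and 0.0604. *Tnks2*, a tankyrase that marks AXIN for removal, rose from 2257 and 2132 to 6010 and 6108 (1.47, adjusted p = 0.000533), and was 0.60 after the correction (adjusted p = 0.0116). *Dvl1*, which passes the signal on from Frizzled, fell from 944 and 807 to 232 and 218 (-1.95, adjusted p = 0.000533), and by 0.60 on the log2 scale after the correction (adjusted p = 0.0158). The RNA of β-catenin was thus higher in the libraries in which *Myc* was lower.

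Among nuclear factors of the pathway 5 of 12 tested genes were lower and 1 higher, with a median of -0.38 that became 0.26 after the correction, when 3 were lower and 4 higher. *Bcl9l*, a co-activator of β-catenin, had 367 and 265 normalized counts in the controls and 83.3 and 63.5 in the cKO libraries (-2.09, limma adjusted p = 0.00185), and did not pass after the correction (adjusted p = 0.0948). *Tle4*, a co-repressor, rose from 683 and 790 to 1638 and 1396 (1.04, adjusted p = 0.00194), and was 0.49 after the correction (adjusted p = 0.0422). *Ctbp1*, the most abundant, had 2755 and 2877 against 3194 and 3439 and did not pass (adjusted p = 0.0757), but was higher after the correction (1.09, adjusted p = 0.00735).

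Among 13 tested further Wnt targets and crypt base genes 2 were lower and 3 higher, with a median of -0.26, and after the correction 3 were lower and 3 higher. *Nkd1*, an inhibitor that Wnt signalling itself induces, had 43.9 and 32.2 normalized counts in the controls and 0 and 2.70 in the cKO libraries (-4.33, limma adjusted p = 0.0119), and was -3.77 after the correction. It reached the level for testing through the controls only, so it had to lie lower, and without control mouse 1 its limma adjusted p was 0.0528. *Slc12a2*, a chloride transporter enriched at the crypt base, rose from 5411 and 6593 to 17790 and 19013 (1.62, adjusted p = 0.000706), and was 0.63 after the correction (adjusted p = 0.0247). Of 6 tested genes ascribed to reserve stem cells 1 was lower and 3 higher, with a median of 0.46, and after the correction 0 were lower and 2 higher. *Hopx* rose from 135 and 173 to 341 and 276 (limma adjusted p = 0.0103), and had a log2 fold change of 0.73 after the correction (limma adjusted p = 0.0368). Its call ended without control mouse 1 or cKO mouse 1 (limma adjusted p = 0.0670 and 0.0823). *Prom1*, the most abundant, had 5178 and 6291 against 7386 and 7718 (0.40, adjusted p = 0.0412) and was -0.23 after the correction, a call that ended without control mouse 1, cKO mouse 1 or cKO mouse 2. *Tert* had 64.2 and 79.6 against 32.9 and 36.5 (-1.02, adjusted p = 0.0396), a call that ended under 12 of 17 alternatives, the omission of any one mouse among them.

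**Figure D4:**
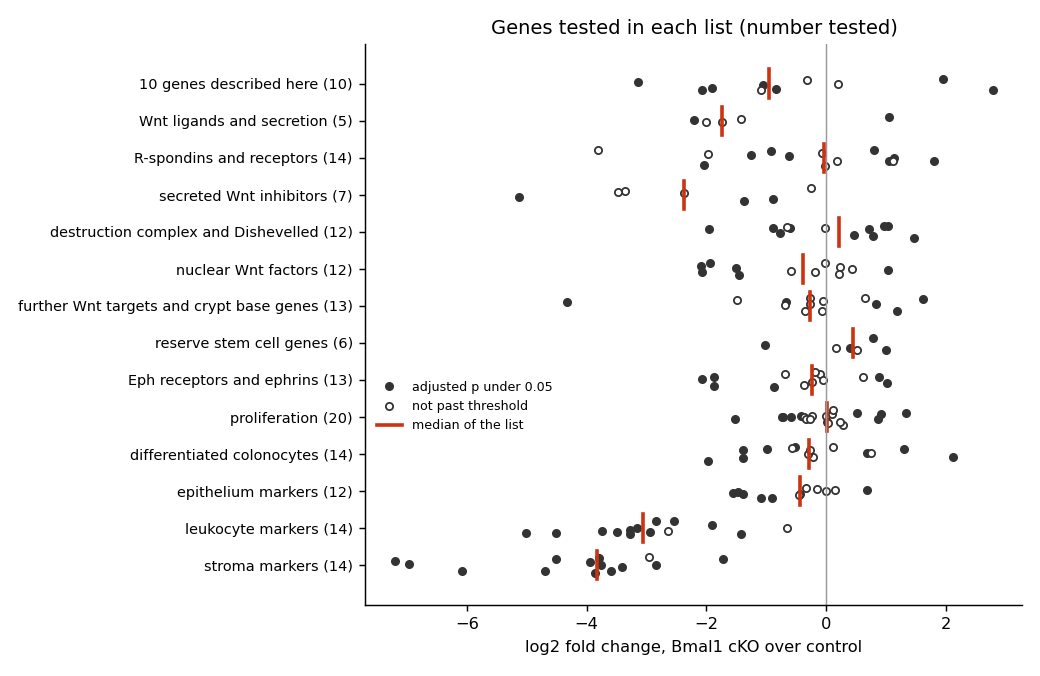
Log2 fold change (cKO over control) of every tested gene in the 10 genes described, in 10 further lists and in 3 lists of cell type markers, with the number tested in parentheses, filled points for an adjusted p under 0.05 from limma and a red bar at the median of the list. The 10 genes spread from -3.14 to 2.79 around a median of -0.94, most pathway lists hold genes on both sides of 0, and the stroma and leukocyte markers lie almost wholly to the left, with medians of -3.83 and -3.05.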

How the data were processed

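RNA sequencing of colonic epithelial cells from 2 control mice and 2 mice labelled *Bmal1* cKO was used, grouped by the genotype in the labels. The authors aligned reads to GRCm38 with STAR and deposited a signal for each gene and library, namely its read count divided by a DESeq2 size factor. The counter and annotation release are not given in the sources used here, and the labels and methods name different library kits. The authors' fold changes and p-values in the same table were not used.

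The signal was taken to log2(value + 1), and the 13983 genes with a mean of 10 or more were tested by limma 3.58.1 (R 4.3.3, trend of variance with mean), two-sided, Benjamini-Hochberg adjusted over all of them, at 0.05. Fold changes on this scale understate the change of low genes. With 2 mice per group, p-values measure the spread between these mice only. Whole reads were recovered for 100% of values in each library, within 0.1 of a read, and served DESeq2 1.42.0 and edgeR 4.0.16. For the GC-corrected scale a loess surface (span 0.3) over the GC content and length of the GENCODE M21 exons was subtracted from each library. The steps were tested on simulated data. Other alternatives were pseudocounts, filters, scalings, a replicate block and the omission of each mouse. Scaling on 12 epithelium markers, alone and after the GC correction, was added after the data were seen.

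The 10 genes and all lists were chosen with earlier results of these data known. Beyond the 10, each list was ranked for its 3 most abundant tested genes and the 2 with the largest changes past the threshold in each direction, and the first of each is named. *Arntl*, *Epcam*, *Mki67*, cell type markers and the 5 genes nearest *Lgr5* were named besides. *Des*, *S100a8*, *S100a9*, *Gm6999* and *Gm11670* were named after their values were seen.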

Additional observations from a re-analysis of the deposited data

How the results depend on the processing

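For the 10 genes, 136 of 169 values under the alternatives kept the direction and the side of the threshold, 22 kept the direction but lost the call, 6 gained one and 5 changed sign. *Smoc2* and *Myc* kept theirs under every alternative. Of the 10 genes, 5 were lower. This number was 2 on the GC-corrected scale, 2 with scaling on epithelium markers, and 3 with that scaling after the GC correction (*Olfm4*, *Myc* and *Sox9*). With a mouse left out it lay between 2 (without cKO mouse 1 or cKO mouse 2) and 6 (without control mouse 1), and was 3 without control mouse 2. Of all genes tested 17% were lower without control mouse 1, 20.4% without control mouse 2, 17.1% without cKO mouse 1 and 15.8% without cKO mouse 2. The number higher was 2, and was 1 without cKO mouse 1 or cKO mouse 2, when *Lgr5* missed the threshold (20% and 19% of all genes were higher), and 3 with scaling on epithelium markers. Of all genes tested, 14.2% were lower and 44.5% higher with scaling on epithelium markers, 21.3% and 6.32% with that scaling after the GC correction, and 34.9% and 22.1% with library totals, against 27.7% and 29% on the deposited scaling. The number of further genes lower was 34, and became 21 on the GC-corrected scale (13 of them among the 34), 16 with scaling on epithelium markers and 19 to 26 with a mouse left out, the lowest without cKO mouse 1. The number of further genes higher, 27, became 46 with scaling on epithelium markers and 14 with that scaling after the GC correction. Scaling on epithelium markers moved the median of all genes by 0.58, by -0.22 after the GC correction, and library totals moved it by -0.22, so directions under them are relative to these shifts.

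Mouse numbers 1 and 2 stand in both groups. Across genes, the deviations of same-numbered mice from their group means had a correlation of -0.09, and of -0.10 on the GC-corrected scale. With 2 mice per group this cannot show whether same-numbered mice shared more than a number. With the replicate block the 10 genes gave 5 lower and 2 higher, as without it (27.1% and 27.9% of all genes were). *Axin2* passed (limma adjusted p = 0.0364) and *Olfm4* did not (limma adjusted p = 0.0502). With the replicate block and the GC correction together 1 of the 10 genes was lower and 2 were higher (12.2% and 12.5% of all genes were), 14 of the further genes were lower and 33 were lower or higher.

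Signs changed as follows, in log2 fold change. On the GC-corrected scale, with or without the replicate block, *Ephb2* was 0.053, *Mki67* -0.49, *Wls* -0.070, *Prom1* -0.23 and *Top2a* -0.057. With scaling on epithelium markers *Sox9* was 0.27, *Arntl* 0.42, *Kremen1* 0.33 and *Ceacam1* 0.31. With that scaling after the GC correction *Mki67* was -0.72, *Wls* -0.30, *Prom1* -0.45 and *Top2a* -0.28. With library totals *Znrf3* was -0.017 and *Mki67* -0.22. *Mki67* was -0.00676 with TMM scaling and -0.00152 in edgeR, and lay between -0.11 and 0.13 with a mouse left out. *Sox9* lay between -0.62 and 0.0030 with a mouse left out. *Olfm4*, *Nkd1*, *Wnt5a*, *Ror2* and *Efna3* could not be tested at a mean of 50 or more. The causes of these shifts were not tested. With 2 mice per group and 29 reads of *Lgr5* and 14 of *Olfm4* in the first control library, sizes for the lowest genes are uncertain.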

Other observations

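Genes of the cell cycle moved both ways on the deposited scaling, where *Myc* was lower. *Mki67*, the proliferation marker, had 5929 and 6089 normalized counts in the control libraries and 6573 and 5562 in the cKO libraries, with a log2 fold change of 0.01 (95% confidence interval -0.29 to 0.30, limma adjusted p = 0.953). On the GC-corrected scale *Mki67* was lower (-0.49, limma adjusted p = 0.0356), and with scaling on epithelium markers it was higher (0.59, limma adjusted p = 0.0136). Of 20 proliferation genes tested 5 were lower and 4 higher, around a median of 0.02. On the GC-corrected scale 8 were lower, 0 were higher and the median was -0.23. Of all genes tested 27.7% were lower and 29% higher, and 15.7% and 15.9% on the GC-corrected scale. *Bub1*, a mitotic checkpoint kinase, rose from 525 and 481 to 1422 and 1144 (1.34, limma adjusted p = 0.00113), and *Top2a*, the most abundant, from 4981 and 4653 to 9722 and 8528 (0.92, limma adjusted p = 0.00189). Neither passed on the GC-corrected scale. *Plk1*, a mitotic kinase, fell from 1461 and 1736 to 547 and 564 (-1.52, limma adjusted p = 0.000612) and by 0.72 on the log2 scale after the correction (limma adjusted p = 0.0132). The number of *Lgr5* reads per *Mki67* read was 0.00413 and 0.0125 in the controls and 0.0418 and 0.0610 in the cKO libraries.

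Genes of mature colonocytes were mixed as well. Of 14 tested 5 were lower and 3 higher, around a median of -0.28, where 27.7% and 29% of all genes were. On the GC-corrected scale 1 was lower and 2 were higher, where 15.7% and 15.9% of all genes were. *Slc26a3* was named as the largest rise of its list and for its nearness to *Lgr5*, so a rise was given by that choice. It had a log2 fold change of 2.13 (SE 0.35, limma adjusted p = 0.00486) and 1.32 on the GC-corrected scale (limma adjusted p = 0.0440). Without cKO mouse 1 or cKO mouse 2 its limma adjusted p was 0.0548 and 0.0657. *Car4*, a carbonic anhydrase of surface cells, fell from 5432 and 10492 normalized counts to 1585 and 2328 (-1.97, limma adjusted p = 0.00595) and was -1.54 on the GC-corrected scale (limma adjusted p = 0.0320), while without cKO mouse 1 its limma adjusted p was 0.0701. *Ceacam1*, the most abundant, had 58263 and 70465 against 51774 and 55150 and did not pass.

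Among the Eph receptors and ephrins that sort cells along the crypt with *Ephb2*, 4 of 13 tested genes were lower and 2 higher, around a median of -0.23. On the GC-corrected scale 1 was lower and 3 were higher, around a median of 0.34. The shares over all genes were 27.7% lower and 29% higher, and 15.7% and 15.9% on the GC-corrected scale. *Efnb2*, a ligand of EPHB2, rose from 1237 and 1434 normalized counts to 2479 and 2438 (0.88, limma adjusted p = 0.00174) and passed under all 17 alternatives. *Epha4* rose from 284 and 262 to 503 and 616 (1.03, limma adjusted p = 0.00322), and did not pass on the GC-corrected scale (0.57, limma adjusted p = 0.0646). *Efna3* had 17.7 and 44.0 against 5.14 and 6.76 (-2.07, limma adjusted p = 0.0481). It reached the level for testing through the controls only, and its call ended in 9 of 16 alternatives, among them the GC correction (limma adjusted p = 0.252) and the omission of control mouse 2, cKO mouse 1 or cKO mouse 2.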
